A study of Mus musculus with 12 samples.

Results

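This account covers 10 genes of the p53 pathway and of the Cdkn2 locus in mouse oral tumours: Trp53, its regulator Mdm2, the p53 targets Cdkn1a, Ccng1, Sesn2, Phlda3, Zmat3 and Trp53inp1, and the neighbouring inhibitor genes Cdkn2a and Cdkn2b. The members were picked by symbol from the deposited expression table, which lists 55401 genes, by a rule that uses no measured value, and all 10 were present. The list of symbols itself was drawn up with earlier results of these data known. RNA was sequenced in 12 libraries of tumour tissue, 3 for each of 4 treatments, and each library is called a tumour below. The labels describe MTC-Q1 mouse oral cancer cells injected orthotopically into C57BL/6 mice, with treatment from a tumour size of 100 mm3. The study's methods place the injection in the buccal mucosa of young adult mice. All 12 libraries therefore share the cell line, the host strain and the site as labelled. The series design speaks of 4 doses and the treatment protocol of 6.

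The control group received an IgG1-Fc isotype protein (Ctrl-IgG). The second group received an antibody that blocks CSF1R, the receptor on which macrophages depend (aCSF1R). The third received recombinant interleukin-10 carried on an Fc fragment (IL-10-Fc). The fourth received BF10, a fusion of the CSF1R antibody with interleukin-10. Interleukin-10 was thus given to 6 tumours, those of IL-10-Fc and BF10, and was absent from the treatment of the other 6. The sources used here do not state whether the libraries of a group came from separate mice. The study's resource list describes this tumour tissue as mixed, without explaining the word. The p-values therefore measure the spread between these libraries, which may be technical.

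p53, encoded by Trp53, is a transcription factor that responds to DNA damage and other stress. It switches on Cdkn1a, whose product p21 halts the cell cycle by blocking cyclin-dependent kinases, and also Mdm2, whose product marks p53 for destruction and so closes a feedback loop. The Cdkn2a gene encodes both p16, which blocks Cdk4 and Cdk6, and Arf, which blocks Mdm2 and so spares p53. Cdkn2b encodes p15, a close relative of p16. Loss of p53 function and of the Cdkn2 locus is common in squamous cancers of the head and neck.

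All positions below are in GRCm38. Trp53 lies on chromosome 11 (69580359 to 69591873, plus strand), Mdm2 on chromosome 10 (117688875 to 117710758, minus), Cdkn1a on chromosome 17 (29090976 to 29100727, plus) and Ccng1 on chromosome 11 (40748552 to 40755311, minus). Sesn2 and Trp53inp1 lie on chromosome 4 (132492032 to 132510501, minus, and 11156431 to 11174379, plus), Phlda3 on chromosome 1 (135766119 to 135769136, plus) and Zmat3 on chromosome 3 (32334792 to 32366014, minus). Cdkn2a (89274471 to 89294653, minus) and Cdkn2b (89306299 to 89311039, minus) are 11.6 kb apart on chromosome 4. Cdkn2a has 2 annotated transcripts with separate first exons, at 89281986 to 89282192 for p16 and at 89294334 to 89294653 for Arf. Both continue into exon 2 at 89276645 to 89276985, so the gene's single expression value cannot tell p16 from Arf.

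The sequences before the start sites of the members are shown because p53 binds DNA at a known motif. p53 recognises a 10-base unit, the p53 decamer, and a full response element holds a pair of them with a short spacer. RefSeq promoters were given for 8 members, as 10 start sites, and the 250 bases before each start were searched for the decamer. The decamer consensus is its own reverse complement, so a single search covers both strands. The promoters of Cdkn1a, Mdm2, Ccng1 and Trp53 held it. Of all 32851 mouse promoters of this length, 7.13% held at least 1 decamer and 0.0639% (21) held a pair with a spacer of at most 13 bases. Cdkn1a was the only member with such a pair, at positions -73 and -51 from the first of its starts, with 12 bases between them. Capitals mark the decamers, and only exact matches to the consensus were counted.
Cdkn1a, chr17:29090886-29090957, plus strand: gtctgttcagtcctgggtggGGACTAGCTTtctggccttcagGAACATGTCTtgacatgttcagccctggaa
Mdm2, chr10:117710915-117710964, minus strand: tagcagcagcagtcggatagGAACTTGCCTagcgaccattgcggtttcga
Ccng1, chr11:40755442-40755491, minus strand: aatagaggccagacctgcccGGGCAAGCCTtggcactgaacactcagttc
Trp53, chr11:69580264-69580313, plus strand: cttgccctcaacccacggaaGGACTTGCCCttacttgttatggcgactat

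The single decamers began at -186 in Mdm2, -185 in Ccng1 and -75 in Trp53. No decamer was found in these windows of Cdkn2a (either start), Cdkn2b, Sesn2, Phlda3 or the second start of Cdkn1a. The match is a description of letters and not of binding. The 60 bases before the Cdkn2 start sites are shown for comparison, since the locus has 3 separate starts and none of them held the motif.
Cdkn2a, Arf start, chr4:89294654-89294713, minus strand: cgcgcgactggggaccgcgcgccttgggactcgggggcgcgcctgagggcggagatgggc
Cdkn2a, p16 start, chr4:89282193-89282252, minus strand: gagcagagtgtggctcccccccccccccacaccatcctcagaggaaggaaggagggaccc
Cdkn2b, chr4:89311040-89311099, minus strand: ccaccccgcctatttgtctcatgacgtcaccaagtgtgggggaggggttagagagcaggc

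Values are in FPKM, fragments divided by transcript length and by library size, so they may be compared between genes. Differences are on the log2(FPKM + 1) scale, which understates the change of low genes such as Cdkn2a and Cdkn2b. A gene was called when its adjusted p from limma was under 0.05 and its fold was at least 1.5. Among the 55401 genes, 15813 reached 1 FPKM in 3 libraries and were tested, all 10 members among them.

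The libraries did not fall by treatment alone. The 6 tumours given interleukin-10 differed from the other 6 in sex-linked and strain-linked genes. Xist, expressed in female cells, was 17.1 to 30.7 FPKM in them and at most 0.04 in the others, while the Y-linked Eif2s3y was 4.23 to 11.3 in the others and listed at 0 to 0.05 in 5 of the 6 tumours given interleukin-10 (of 5 sex-linked genes listed, 3 were tested and called, Xist higher and Eif2s3y and Ddx3y lower). H2-Ea, an MHC class II gene that C57BL/6 mice do not transcribe because of a deletion, was 553 to 1727 FPKM in the tumours given interleukin-10 and at most 0.27 elsewhere, which goes against the labelled strain in 6 libraries. Treatment therefore cannot be told apart from sex, strain or tumour source in any comparison across these sides. BF10 replicate 3 held Eif2s3y at 3.29 FPKM and Rhox5, a reproductive homeobox gene of the X chromosome, at 111 FPKM against 0.37 to 20.6 in the other 5 tumours given interleukin-10 and 575 to 791 in the 6 without it. H2-Ea and Rhox5 were named after their values were seen. The epithelial markers Krt8, Krt18, Krt19, Krt7, Epcam and Cdh1 were all 6 higher in the tumours given interleukin-10, with sums of 598 to 1577 FPKM against 0.90 to 9.11, and Krt18 was at 0 to 0.09 FPKM in the tumours without it. The squamous markers (10 genes, 9 tested, Sprr1b alone called lower) summed to 1395 to 1781 FPKM in Ctrl-IgG replicate 3 and aCSF1R replicates 1 and 2, to 3.90 to 5.00 in the other 3 libraries of that side, and to 18.2 to 36.7 in the tumours given interleukin-10. Krt5 and Krt14, keratins of that lineage, were at most 0.17 FPKM in Ctrl-IgG replicates 1 and 2 and aCSF1R replicate 3. What this says of the labelled oral cancer cells was not tested. Fibroblast markers (5 of 6 called higher, 1 lower) summed to 1014 to 2308 FPKM in the tumours given interleukin-10 and 163 to 607 in the others, macrophage markers (3 of 5 higher) to 407 to 566 against 124 to 347, and muscle markers (3 of 5 lower) to 6.58 to 86.0 against 29.5 to 843. Of the leukocyte markers 1 of 6 was called (Ptprc, higher), and of the endothelial markers 0 of 4. The median leukocyte difference was 0.55, and 0.86 without the 4 libraries of high FPKM sum named below. The leukocyte markers then differed by 1.41 (Itgam), 1.26 (Cd79a), 1.02 (Cd3e), 0.69 (Ptprc), 0.47 (Adgre1) and 0.32 (Cd68). The endothelial median was -0.02 in all libraries and 0.39 without those 4. The part of these cell types in the results below was not tested. Separately, 4 libraries had higher FPKM sums (819001 to 976950 against 637596 to 701275) and a higher mitochondrial share (6.57% to 9.04% against 2.99% to 3.61%): replicate 1 of BF10, replicate 2 of Ctrl-IgG and replicates 1 and 2 of IL-10-Fc. Results over the IL-10 contrast are given with and without these 4, and without them IL-10-Fc is a single library, assumed to vary like the other groups. Each title carries a code from C1 to C7 that the labels do not explain. The tumours given interleukin-10 with high FPKM sums had codes C2 or C4 and the other 3 had C6 or C7, Ctrl-IgG replicates 1 and 2 shared C1, and C6 also occurred in aCSF1R replicate 3.

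Trp53 was the most abundant member by group mean in every group but IL-10-Fc, and was lower in the tumours given interleukin-10. Its values were 76.3, 24.5 and 73.2 FPKM under Ctrl-IgG, 80.95, 85.1 and 58.7 under aCSF1R, 4.92, 3.91 and 29.2 under IL-10-Fc and 7.23, 34.4 and 40.6 under BF10. Ctrl-IgG replicate 2, at 24.5 FPKM, lay among the tumours given interleukin-10, so the sides overlapped. The order of the group means was aCSF1R (74.9 ± 14.2 FPKM, SD, n = 3), Ctrl-IgG (58.0 ± 29.1), BF10 (27.4 ± 17.7) and IL-10-Fc (12.7 ± 14.3), and neighbours in this order overlapped. Over the contrast of the 6 tumours given interleukin-10 with the other 6, termed the IL-10 contrast, Trp53 fell by 2.08 on the log2 scale (SE 0.54, adjusted p = 0.00918, limma). Without the 4 libraries of high FPKM sum, the 3 remaining tumours given interleukin-10 read 29.2 to 40.6 FPKM, all below the 58.7 to 85.1 of the 5 others, and the fall was 1.15 (SE 0.14, adjusted p = 0.000646). In bulk tumour RNA, fewer cells of a type and less RNA per cell cannot be told apart. Among the tumours without interleukin-10, the 3 with high squamous sums had Trp53 at 73.2, 80.95 and 85.1 FPKM and the other 3 had 76.3, 24.5 and 58.7, and the part of squamous RNA in these values was not tested.

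Mdm2, the ligase that removes p53, was not called. It read 19.3, 9.22 and 24.3 FPKM under Ctrl-IgG, 22.1, 21.6 and 16.8 under aCSF1R, 4.73, 5.08 and 26.5 under IL-10-Fc and 6.7, 24.9 and 25.9 under BF10. The 4 libraries of high FPKM sum held 4.73 to 9.22 FPKM and the other 8 held 16.8 to 26.5, whatever their treatment. The IL-10 contrast was -0.54 (SE 0.46, 95% interval -1.55 to 0.47, adjusted p = 0.344). Among the 8 other libraries the sign turned to 0.30 (SE 0.13, adjusted p = 0.0729), and the 3 tumours given interleukin-10 (24.9 to 26.5 FPKM) lay above the other 5 (16.8 to 24.3).

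Cdkn1a, the p21 gene and the member with the paired decamers shown above, was also lower. Its values were 45.6, 16.6 and 54.4 FPKM under Ctrl-IgG, 34.7, 39.2 and 35.8 under aCSF1R, 8.99, 6.32 and 30.5 under IL-10-Fc and 13, 24.04 and 30.2 under BF10. The group means were 38.8 ± 19.8 FPKM in Ctrl-IgG, 36.6 ± 2.34 in aCSF1R, 22.4 ± 8.72 in BF10 and 15.3 ± 13.2 in IL-10-Fc, with n = 3 in each, and of neighbours in this order the aCSF1R and BF10 libraries did not overlap. Cdkn1a fell by 1.09 over the IL-10 contrast (SE 0.40, adjusted p = 0.0417). The 4 libraries of high FPKM sum were its 4 lowest, at 6.32 to 16.6 FPKM. Among the other 8 libraries Cdkn1a fell by 0.56 (SE 0.11, adjusted p = 0.00408), which is below a fold of 1.5 and so was not called, although the 3 tumours given interleukin-10 (24.0 to 30.5) lay below the other 5 (34.7 to 54.4). The call over all libraries was also lost when values were rescaled to TPM (adjusted p = 0.0658) and when any 1 library was left out, except Ctrl-IgG replicate 2, IL-10-Fc replicate 3 or BF10 replicate 3 (adjusted p between 0.0597 and 0.0974).

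Ccng1, which encodes cyclin G1, separated the sides in all 12 libraries. It read 33.9, 54.1 and 32.3 FPKM under Ctrl-IgG, 31.9, 29.9 and 32.5 under aCSF1R, 24.8, 26.6 and 15.6 under IL-10-Fc and 24.6, 18.5 and 19.99 under BF10. Every tumour given interleukin-10 was at 26.6 FPKM or less, and every other tumour was at 29.9 or more. The fall over the IL-10 contrast was 0.69 (SE 0.18, adjusted p = 0.0101), and without the 4 libraries it was 0.86 (SE 0.07, adjusted p = 0.000143). Unlike Trp53, Cdkn1a, Mdm2 and Zmat3, Ccng1 was not low in the libraries of high FPKM sum, and Ctrl-IgG replicate 2 was its highest library at 54.1 FPKM. With median-of-ratios or quantile scaling between libraries the Ccng1 call was lost while its direction stayed (-0.35 and -0.42), and without Ctrl-IgG replicate 2 or IL-10-Fc replicate 3 it fell to just under a fold of 1.5 (-0.58 in each).

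Sesn2, a stress-induced sestrin that restrains mTORC1 signalling, had the smallest adjusted p of the members. It read 12.04, 4.06 and 8.46 FPKM under Ctrl-IgG, 13.6, 13.8 and 10.7 under aCSF1R, 1.12, 0.39 and 2.14 under IL-10-Fc and 1.28, 2.54 and 3.84 under BF10. The sides did not overlap, with 0.39 to 3.84 FPKM in the tumours given interleukin-10 and 4.06 to 13.8 in the rest. Group means were 12.7 ± 1.70 FPKM in aCSF1R, 8.19 ± 4.00 in Ctrl-IgG, 2.55 ± 1.28 in BF10 and 1.22 ± 0.88 in IL-10-Fc (n = 3 each), and only the step from Ctrl-IgG to BF10 was without overlap. The fall was 2.01 (SE 0.29, adjusted p = 0.000252), and 1.77 (SE 0.18, adjusted p = 0.000306) without the 4 libraries. Sesn2 and Ccng1 made 2 of 10 members lying wholly lower on the side given interleukin-10, where 17.6% of all tested genes did so.

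The other 3 p53 targets were not called. Phlda3, a repressor of the kinase Akt, read 15.7, 13.01 and 21.04 FPKM under Ctrl-IgG, 14.9, 20.2 and 15.8 under aCSF1R, 18.3, 15.2 and 13.2 under IL-10-Fc and 17.6, 15.6 and 14.6 under BF10, with an IL-10 contrast of -0.07 (SE 0.16, 95% interval -0.43 to 0.28, adjusted p = 0.723), or -0.29 (SE 0.14, adjusted p = 0.117) without the 4 libraries. Its libraries overlapped in every comparison made. Zmat3, an RNA-binding zinc finger protein, read 3.39, 1.6 and 3.9 FPKM under Ctrl-IgG, 3.14, 3.56 and 2.79 under aCSF1R, 0.95, 0.77 and 3.89 under IL-10-Fc and 1.19, 3.92 and 4.2 under BF10. The libraries of high FPKM sum were its 4 lowest (0.77 to 1.60 FPKM against 2.79 to 4.2), and the IL-10 contrast was -0.35 (SE 0.32, adjusted p = 0.380) in all libraries and 0.18 (SE 0.11, adjusted p = 0.204) without those 4. Trp53inp1, a p53-induced protein with a part in apoptosis and autophagy, read 2.33, 5.21 and 4.35 FPKM under Ctrl-IgG, 4.09, 4.97 and 4.43 under aCSF1R, 7.65, 5.83 and 2.45 under IL-10-Fc and 5.95, 6.63 and 8.79 under BF10. Its contrast was 0.42 (SE 0.25, adjusted p = 0.179), or 0.18 (SE 0.19, adjusted p = 0.433) without the 4 libraries, with IL-10-Fc replicate 3 at 2.45 FPKM and the other 5 tumours given interleukin-10 at 5.83 to 8.79.

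**Figure D1:**
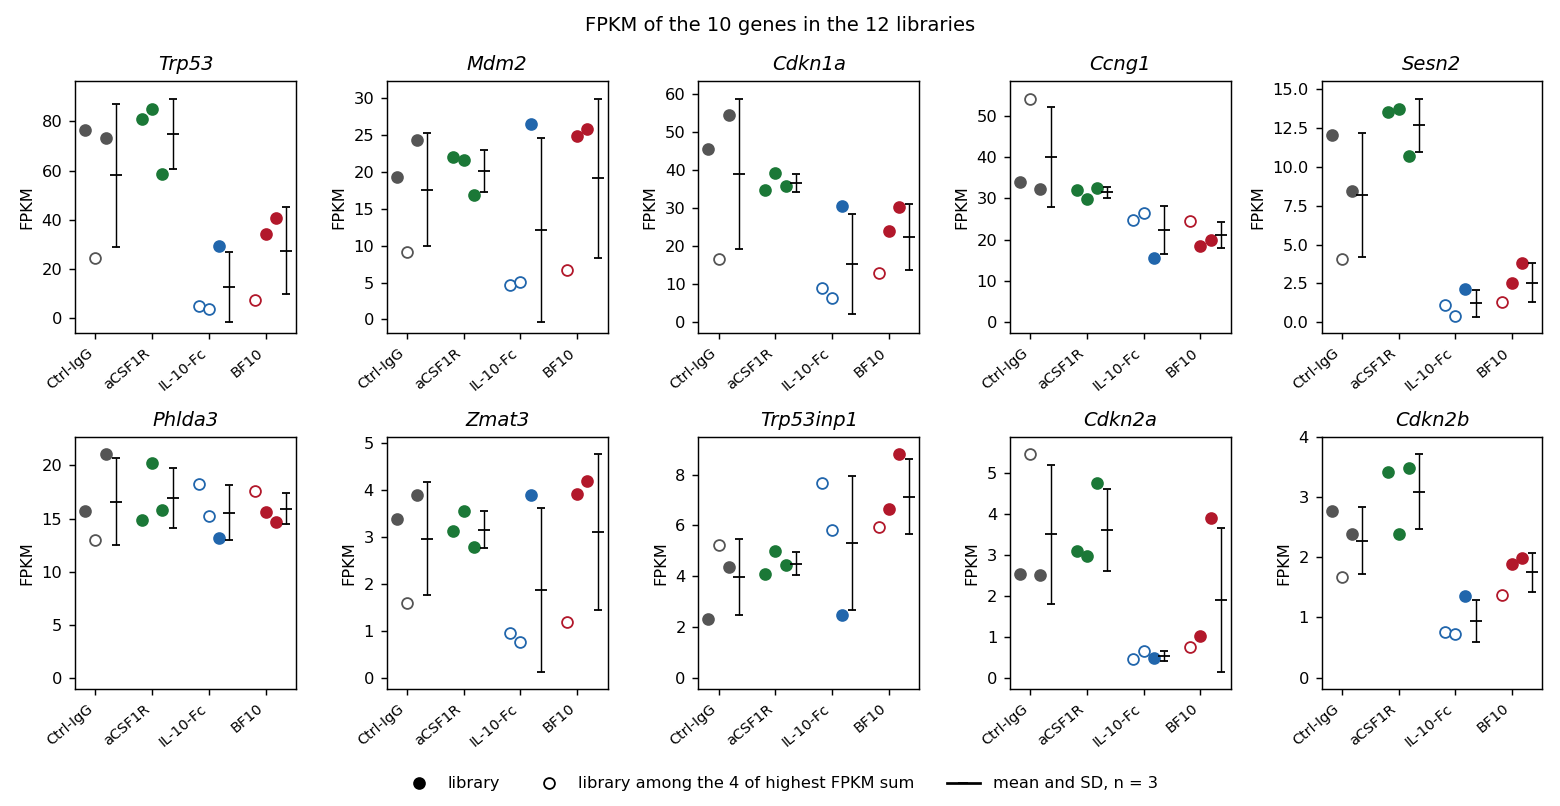
FPKM (vertical axes, all including 0, scaled for each gene) of the 10 genes in the 12 libraries by treatment group; points are libraries, open points the 4 libraries of highest FPKM sum, and bars the mean and SD of n = 3. Sesn2 and Ccng1 separate the tumours given interleukin-10 from the rest, while Trp53, Mdm2, Cdkn1a and Zmat3 are lowest in the open points of each group that holds one.

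Cdkn2a was low in all tumours and lower in those given interleukin-10, with 1 exception. It read 2.53, 5.45 and 2.51 FPKM under Ctrl-IgG, 3.09, 2.96 and 4.75 under aCSF1R, 0.45, 0.66 and 0.48 under IL-10-Fc and 0.74, 1.02 and 3.91 under BF10. Of the 6 tumours given interleukin-10, 5 were at 0.45 to 1.02 FPKM, and BF10 replicate 3, at 3.91, lay within the 2.51 to 5.45 of the other side. The fall over the IL-10 contrast was 1.15 (SE 0.27, adjusted p = 0.00534). It was 0.89 (SE 0.32, adjusted p = 0.0462) without the 4 libraries, and 1.21 when BF10 replicate 3 was left out as well. The fit behind the 1.21 was chosen after the values were seen, and it leaves IL-10-Fc and BF10 with a single library each. BF10 replicate 3 was also the tumour given interleukin-10 with the most Eif2s3y, Rhox5 and Gdf15 (4.53 FPKM against 0.03 to 0.41 in the other 5). Their part in its Cdkn2a value was not tested.

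Cdkn2b, next to Cdkn2a, was lower as well. It read 2.76, 1.68 and 2.39 FPKM under Ctrl-IgG, 3.41, 2.38 and 3.48 under aCSF1R, 0.76, 0.73 and 1.35 under IL-10-Fc and 1.37, 1.89 and 1.98 under BF10. The tumours given interleukin-10 held 0.73 to 1.98 FPKM and the others 1.68 to 3.48, so the sides overlapped through Ctrl-IgG replicate 2. The fall was 0.66 (SE 0.16, adjusted p = 0.00581). Without the 4 libraries it was 0.54 (SE 0.14, adjusted p = 0.0156), below a fold of 1.5, and the 8 libraries then separated without overlap (1.35 to 1.98 against 2.38 to 3.48). Its call was also lost with median-of-ratios or quantile scaling.

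Over the IL-10 contrast 6 of the 10 members were called lower (Trp53, Cdkn1a, Ccng1, Sesn2, Cdkn2a and Cdkn2b) and none higher, where 28.6% of all tested genes were called lower and 14.6% higher. The median member difference was -0.68 and that of all tested genes -0.30. The all-gene median moved to -0.02 with median-of-ratios scaling, and the calls then split into 3200 higher and 3291 lower genes in place of 2309 and 4523. Relative to that shift, Trp53, Cdkn1a, Sesn2 and Cdkn2a stayed called lower with median-of-ratios or quantile scaling. The Cdkn1a call was lost under the other alternatives given above. Without the 4 libraries of high FPKM sum 4 members were called lower (Trp53, Ccng1, Sesn2 and Cdkn2a), against 24.8% of the genes then tested. Among those 8 libraries, Trp53, Cdkn1a, Ccng1, Sesn2 and Cdkn2b lay wholly lower on the side given interleukin-10 (5 of 10 members, 36.8% of all genes) and Mdm2 wholly higher (1 of 10, 25.4% of all genes). All 4 libraries of high FPKM sum lay below the other 8 for Trp53, Cdkn1a, Mdm2 and Zmat3 (4 of 10), as they did for 25.2% of all genes.

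**Figure D2:**
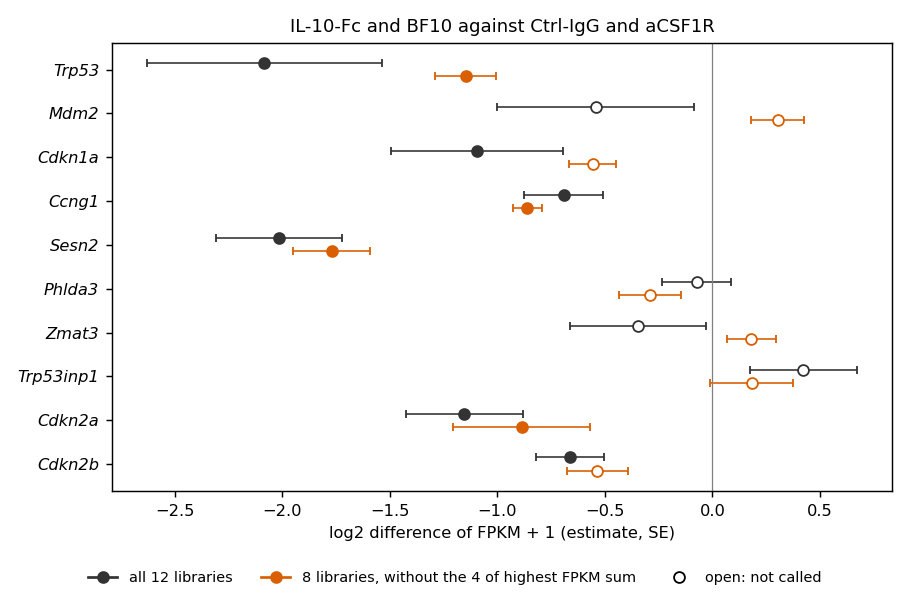
log2 difference of FPKM + 1 (horizontal axis) between the 6 tumours given interleukin-10 and the 6 others for each gene, in all 12 libraries (dark) and in the 8 without high FPKM sums (orange); bars are SE and open points were not called. Sesn2, Trp53, Cdkn2a and Ccng1 stay called on the lower side in both, while Mdm2 and Zmat3 move across 0.

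The treatment comparisons asked whether each agent changed these genes against Ctrl-IgG, and whether BF10 differed from its components. The comparisons with Ctrl-IgG share its 3 libraries and those with BF10 share the BF10 libraries. All but aCSF1R against Ctrl-IgG and BF10 against IL-10-Fc run across the sex and H2-Ea sides described above. IL-10-Fc against Ctrl-IgG called 5 members lower: Trp53 (-2.46, adjusted p = 0.0303), Sesn2 (-2.02, adjusted p = 0.00373), Cdkn2a (-1.50, adjusted p = 0.0128), Ccng1 (-0.81, adjusted p = 0.0331) and Cdkn2b (-0.75, adjusted p = 0.0249), against 23.6% of all genes. Cdkn1a differed by -1.43 (adjusted p = 0.0706) and was not called. The count was 2 without Ctrl-IgG replicate 1 or without IL-10-Fc replicate 1, 3 without Ctrl-IgG replicate 3 or without IL-10-Fc replicate 2, and 4 (against 24.5% of genes) without the libraries of high FPKM sum, where IL-10-Fc replicate 3 alone stands for its group.

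BF10 against Ctrl-IgG called Sesn2 (-1.33, adjusted p = 0.0371) and Ccng1 (-0.87, adjusted p = 0.0312) lower, 2 of 10 members against 13.2% of all genes. The differences of Trp53 (-1.20, adjusted p = 0.303), Cdkn2a (-0.74, adjusted p = 0.201) and Trp53inp1 (0.74, adjusted p = 0.156) were not called. No member was called without Ctrl-IgG replicate 1, without aCSF1R replicate 1 or without BF10 replicate 2, and 1 was called without Ctrl-IgG replicate 2 or 3, aCSF1R replicate 2 or 3, IL-10-Fc replicate 1 or BF10 replicate 1. Without the 4 libraries of high FPKM sum, Trp53 (-0.98, adjusted p = 0.00553), Cdkn1a (-0.86, adjusted p = 0.00332), Sesn2 (-1.42, adjusted p = 0.00331) and Ccng1 (-0.75, adjusted p = 0.00115) were called lower (4 of 10, against 22.1% of all genes) and Trp53inp1 higher (1.03, adjusted p = 0.0144; 1 of 10, against 18.7%). BF10 against aCSF1R called Sesn2 alone (-2.01, adjusted p = 0.00508), 1 of 10 members against 14.0% of all genes. Without BF10 replicate 3 that count was 2 (against 13.1% of genes), and without the 4 libraries it was 3 lower (against 22.3%) and 1 higher (against 18.7%).

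The aCSF1R and Ctrl-IgG groups lie on the same side, and no member was called between them. In that comparison 0% of all genes were called, 437 genes and 0 members had an unadjusted p under 0.05, and every member's libraries overlapped. The 437 became 228, 271 and 219 without Ctrl-IgG replicate 2, aCSF1R replicate 1 or aCSF1R replicate 2, 828 without Ctrl-IgG replicate 3 and 1283 (1 member) without the 4 libraries, and no member was called in any of these. The member differences ranged from -0.30 (Ccng1, 95% interval -0.88 to 0.27) to 0.67 (Sesn2, 95% interval -0.24 to 1.59), and the interval of Trp53 ran from -1.19 to 2.21. BF10 against IL-10-Fc, also within a side, called no member and 2 genes in all (0.0126%), with 828 genes at an unadjusted p under 0.05. The genes under that p numbered 7749 (6 members, and 2 genes called) when IL-10-Fc replicate 3 was left out and 4227 (6 members, and 109 genes called) when BF10 replicate 1 was. Dropping IL-10-Fc replicate 1 or its replicate 2 gave 382 and 227, dropping BF10 replicate 2 or its replicate 3 gave 359 and 200, and there were 1038 (2 members, and 12 genes called) without the 4 libraries of high FPKM sum. No member was called in any of these. With all libraries Cdkn2b was the one member among those 828, at 0.50 higher in BF10 (95% interval 0.01 to 1.00, adjusted p = 0.478). The BF10 libraries lay wholly above the IL-10-Fc libraries for Cdkn2b and for Cdkn2a (0.76, 95% interval -0.09 to 1.61, adjusted p = 0.478), as they did for 4.67% of all tested genes, whose median difference was 0.34. The contrast of BF10 with the added effects of IL-10-Fc and aCSF1R called no member and 0.00632% of all genes, with 412 genes at an unadjusted p under 0.05. That number was 2363 (2 genes called) with IL-10-Fc replicate 3 left out and 256 with its replicate 2 left out, 930 (26 genes called) with BF10 replicate 1 left out and 236 with its replicate 3 left out, and 1302 (2 members) without the 4 libraries, again with no member called.

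**Figure D3:**
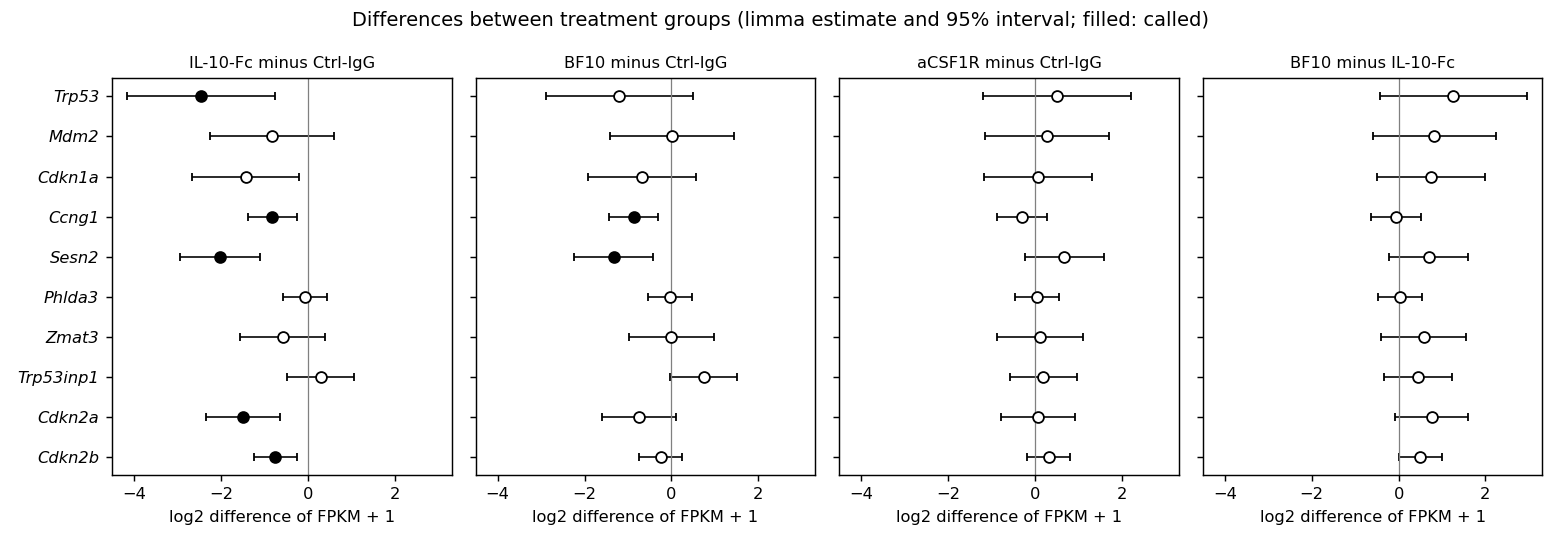
limma estimates and 95% intervals of the log2 difference of FPKM + 1 (horizontal axis) for the 10 genes in 4 comparisons of treatment groups with n = 3 each; filled points were called. IL-10-Fc against Ctrl-IgG calls 5 genes and BF10 against Ctrl-IgG calls 2, and the panels of aCSF1R against Ctrl-IgG and BF10 against IL-10-Fc hold no call.

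Of 40 further genes listed as p53 targets, 39 were tested, and 16 were called lower and 2 higher over the IL-10 contrast (all genes 28.6% and 14.6%), with a median of -0.43 (all genes -0.30). Gdf15, a stress cytokine, had the largest fall, with 17.3, 7.37 and 11.9 FPKM under Ctrl-IgG, 16.8, 14.1 and 13.1 under aCSF1R, 0.03, 0.12 and 0.39 under IL-10-Fc and 0.41, 0.14 and 4.53 under BF10. It fell by 3.17 (SE 0.36, adjusted p = 5.32e-05), and the sides did not overlap. Eda2r, a receptor of the TNF family, read 6.52, 12.2 and 5.46 FPKM under Ctrl-IgG, 5.9, 5.07 and 5.46 under aCSF1R, 0.44, 0.47 and 0.16 under IL-10-Fc and 0.72, 0.3 and 1.1 under BF10 and fell by 2.31 (SE 0.20, adjusted p = 8.87e-06). Psrc1, a microtubule-binding protein, fell by 2.19 (SE 0.25, adjusted p = 5.74e-05). The targets called higher were Epha2, a receptor tyrosine kinase (1.5, SE 0.35), and the long noncoding RNA Pvt1 (1.49, SE 0.19). With the 4 libraries left out, the median of these targets was -0.25 and that of all tested genes -0.16. None of these targets was called between aCSF1R and Ctrl-IgG or between BF10 and IL-10-Fc.

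**Figure D4:**
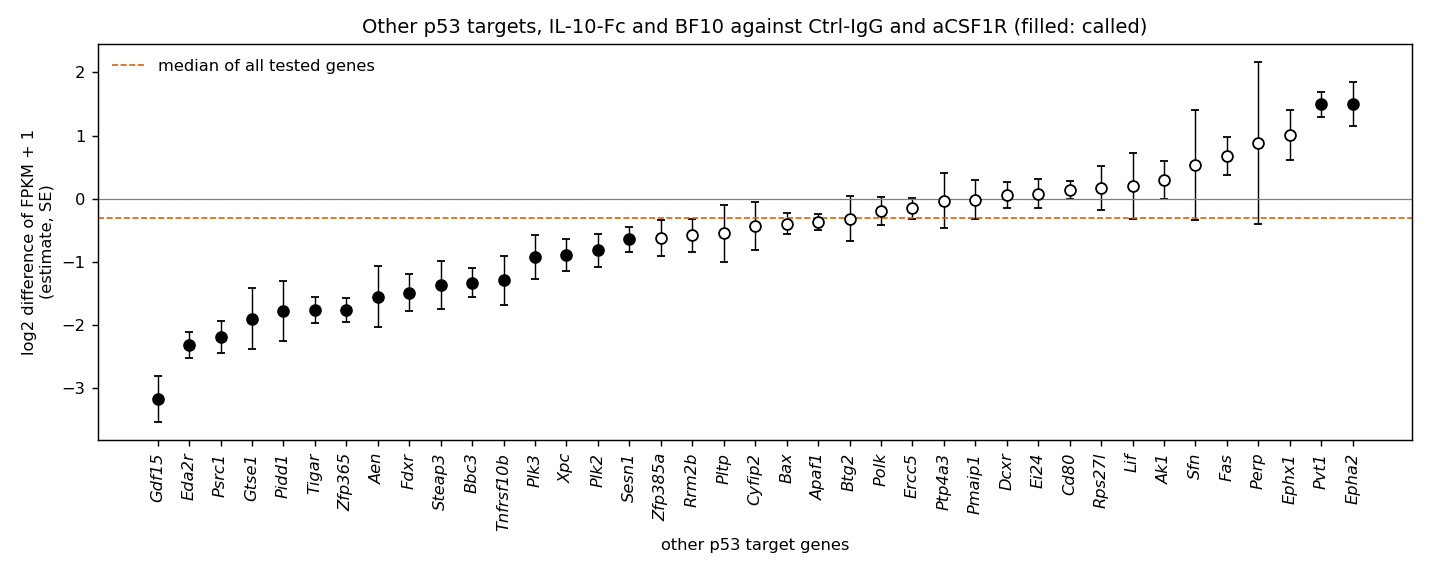
log2 difference of FPKM + 1 (vertical axis, estimate and SE) between tumours given interleukin-10 and the others for the 39 tested genes of the wider p53 target list, ordered by size; filled points were called and the dashed line is the median of all tested genes (-0.30). The lower calls run from Gdf15 at -3.17 to Sesn1 at -0.64, and Pvt1 and Epha2 stand at the upper end.

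Among 16 regulators of p53, 15 were tested, 5 were called lower and 1 higher (all genes 28.6% and 14.6%). The lower calls were the checkpoint kinase Chek2 (-1.54, SE 0.36), Wrap53 (-1.27, SE 0.32), which starts next to Trp53 on the opposite strand, the phosphatase Ppm1d (-1.25, SE 0.15), and, named after their values were seen, Trp53bp1 (-0.77) and the kinase Atm (-0.65). Mdm4, the partner of Mdm2 in restraining p53, was higher by 0.62 (SE 0.15, adjusted p = 0.00635), at 17.8 to 24.6 FPKM against 10.02 to 16.9. With the 4 libraries left out, Trp53bp1 and Atm differed by -0.38 and -0.46, below a fold of 1.5. Chek2, Wrap53 and Ppm1d then differed by -0.85, -0.78 and -1.09, and Mdm4 by 0.69. The largest rises on the list were then those of Ppp1r13b (1.03) and Ppp1r13l (0.95), also named after their values were seen. The list's median was then -0.02 and that of all tested genes -0.16.

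The genes around the Cdkn2 locus did not move together. Mtap, a methionine salvage enzyme at -93.4 kb from Cdkn2a (the minus sign marks lower coordinates), read 87.9, 92.3 and 72.3 FPKM under Ctrl-IgG, 78.2, 65.1 and 76.6 under aCSF1R, 234, 205 and 288 under IL-10-Fc and 281, 276 and 233 under BF10. It was 1.67 higher in the tumours given interleukin-10 (SE 0.14, adjusted p = 6.2e-06) without overlap, in the direction opposite to Cdkn2a and Cdkn2b. Hacd4, which encodes an enzyme of very long chain fatty acid synthesis, was 2.63 higher (SE 0.28, adjusted p = 3.00e-05), at 6.51 to 18.6 FPKM against 0.65 to 1.85. Elavl2, an RNA-binding protein gene 1956.1 kb on the other side, was 2.53 lower (SE 0.17, adjusted p = 1.58e-06), at 0 to 0.59 FPKM against 3.61 to 9.89. Klhl9 (0.04), Mllt3 (-0.10) and Focad (-0.54, adjusted p = 0.0148, below a fold of 1.5) were not called, and Dmrta1, 384.8 kb away, was too low to be tested. With the 4 libraries left out, Mtap and Hacd4 differed by 1.81 and 2.14 and Elavl2 by -2.41.

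**Figure D5:**
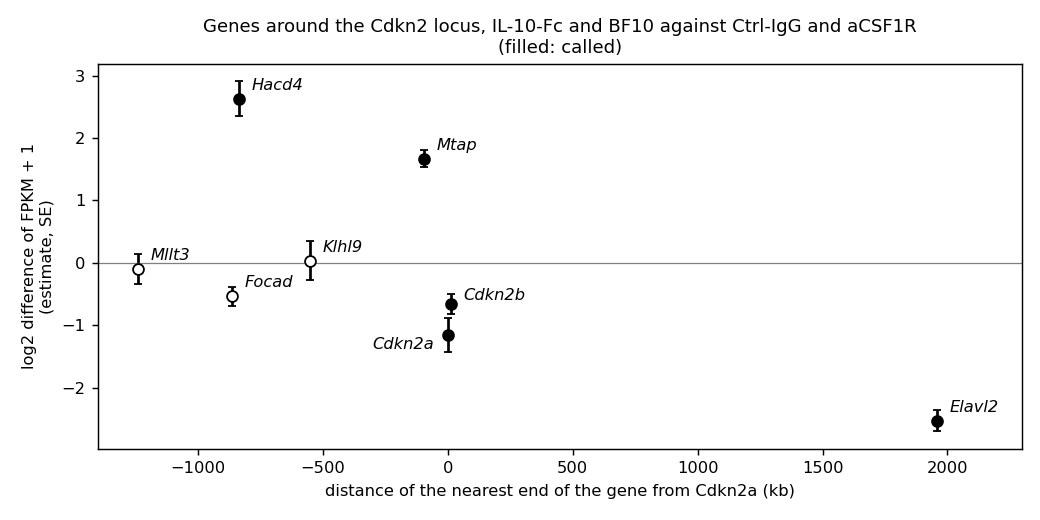
log2 difference of FPKM + 1 (vertical axis, estimate and SE) between tumours given interleukin-10 and the others, against the distance in kb of each gene's nearest end from Cdkn2a (horizontal axis); filled points were called. Mtap and Hacd4 lie above 0, Cdkn2a, Cdkn2b and Elavl2 below it, and Klhl9, Mllt3 and Focad were not called.

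Of 10 repressors of the Cdkn2 locus, mostly Polycomb proteins, 9 were tested, 3 were called lower (against 28.6% of all genes) and 0 higher: the Polycomb subunits Cbx7 (-2.17, SE 0.37) and Cbx8 (-1.10, SE 0.23) and the T-box factor Tbx3 (-1.26, SE 0.29). The count was again 3 lower without the 4 libraries (against 24.8%). The next list held 18 genes of the cyclin-dependent kinase and RB step, on which p16, p15 and p21 act. Of these, 8 were called lower and 2 higher (against 28.6% and 14.6% of all genes). Without the 4 libraries their median was -0.23 and that of all tested genes -0.16. The pocket proteins Rbl1 (-1.47, SE 0.18) and Rbl2 (-1.15, SE 0.26) and the cyclin Ccne2 (-1.07, SE 0.35) had the largest falls. Cdkn2c, which encodes p18, a relative of p16, read 12.1, 8.88 and 8.44 FPKM under Ctrl-IgG, 11.9, 10.2 and 13.7 under aCSF1R, 50.5, 75.8 and 65.9 under IL-10-Fc and 74.4, 54.8 and 53.9 under BF10 and was 2.42 higher (SE 0.16, adjusted p = 1.88e-06) without overlap. Cyclin D1, from Ccnd1, was 1.87 higher (SE 0.41, adjusted p = 0.00355), at 107 to 536 FPKM against 39.7 to 105.

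Profiles over the 12 libraries were compared with those of tested genes that are neither members nor predicted genes. Of these genes, the most like Cdkn2a were Ifi208, Jam3 and Myl2. Their root mean square distances of centred log2(FPKM + 1) values were 0.26, 0.29 and 0.29, where Cdkn2a itself had an SD of 0.79. Ifi208 read 3.11, 4.63 and 2.65 FPKM under Ctrl-IgG, 1.85, 1.95 and 3.2 under aCSF1R, 0.45, 0.39 and 0.51 under IL-10-Fc and 0.43, 0.89 and 2.02 under BF10, with BF10 replicate 3 again the highest of the tumours given interleukin-10. Those nearest to Cdkn1a were Mid1ip1, Pold2 and Thoc3 (0.12, 0.13 and 0.15, with an SD of 0.92 for Cdkn1a), and all 3 were lowest within each group in the libraries of high FPKM sum, as Cdkn1a was.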

How the data were processed

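Total RNA of 12 tumours was made into stranded mRNA libraries and sequenced on an Illumina NextSeq 550. The submitters' processing notes name STAR 2.7.5a, RSEM 1.3.3 and DESeq2 1.30.0 and the build mm10 (GRCm38), without roles. The authors deposited FPKM values for 55401 genes in each library, and also 4 tables of their own DESeq2 comparisons (mean normalized count, log2 fold change, standard error, test statistic, p-value and adjusted p-value), which were not used. FPKM carries no counts, so the fragments behind each value are unknown and no counting interval is given. The study's methods state the number of reads per sample, which was not used here. Groups were taken from the treatment labels, and replicate numbers, given in sample order, only name libraries. No library pair (0) held identical values. GENCODE M21 (GRCm38) held 55141 gene identifiers (99.5%).

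Genes that reached 1 FPKM in 3 or more libraries (15813) were tested on log2(FPKM + 1), pseudocount 1, with limma 3.58.1 in R 4.3.3 (empirical Bayes with an intensity trend). All 12 libraries and 4 groups entered a single model, so that the groups shared 1 estimate of the spread. Benjamini-Hochberg adjustment ran over the 15813 genes, and a call needed an adjusted p under 0.05 and a fold of at least 1.5. Alternatives changed the pseudocount, scaling, filter, covariate and libraries. The 10 members and the gene lists were chosen with earlier results of these data known. Named genes were the members, the 3 largest called changes in either direction of each list over the IL-10 contrast, the neighbours of the Cdkn2 locus, and the 3 genes with profiles nearest to Cdkn2a and to Cdkn1a. Promoter sequences are from RefSeq (GRCm38.p6), with no entry for Zmat3 or Trp53inp1. The decamer searched was the p53 consensus by name, over 250 bases.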

Additional observations from a re-analysis of the deposited data

Results flagged for a closer look

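Within each side of the IL-10 contrast, 6 libraries per side, some library values stood far from the rest of their side on the log2(FPKM + 1) scale. The test asks whether the gap of the extreme library, divided by the range of its side, passes the 95% limit for 6 values, and chance passes it in about 1 of 20 groups. Across the 10 genes and both sides, 20 groups were examined and 5 values passed. Each side pools 2 treatment groups.

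Trp53 in Ctrl-IgG replicate 2 was 24.5 FPKM, with the other 5 libraries of its side at 58.7 to 85.1 (gap over range 0.699). In the same library Ccng1 was 54.1 FPKM, above the 29.9 to 33.9 of the others (0.791). Cdkn2a in BF10 replicate 3 was 3.91 FPKM, above the 0.45 to 1.02 of the other tumours given interleukin-10 (0.728). Trp53inp1 was low in Ctrl-IgG replicate 1 at 2.33 FPKM, where the other libraries of that side held 4.09 to 5.21 (0.681), and in IL-10-Fc replicate 3 at 2.45 FPKM, where the others of that side held 5.83 to 8.79 (0.655).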

How the results depend on the processing

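Over the IL-10 contrast the 22 alternatives kept the direction of 7 members. Trp53 and Sesn2 were called in 22 of 22, Cdkn2a in 21 of the 21 in which it was tested, Ccng1 in 18, Cdkn2b in 16 of 21 and Cdkn1a in 10, while Mdm2, Phlda3 and Zmat3 changed sign in 3 each without being called on the other side, and Mdm2 and Trp53inp1 were called in 1 each. Leaving out 1 library at a time, the count of members called ranged from 5 to 7 (other p53 targets 15 to 21) over the IL-10 contrast. It was 2 to 7 (7 to 22) for IL-10-Fc against Ctrl-IgG. For BF10 it was 0 to 2 (5 to 9) against Ctrl-IgG and 1 to 2 (6 to 11) against aCSF1R. Among all tested genes, 5941 to 8405 were called over the IL-10 contrast and 3530 to 8044 for IL-10-Fc against Ctrl-IgG. For BF10 these were 2584 to 4848 against Ctrl-IgG and 2555 to 5001 against aCSF1R. The counts of 7 members came without IL-10-Fc replicate 3, where 8405 and 8044 of 15631 genes were called. For BF10 against Ctrl-IgG the reported fit called 2 members and 3941 of 15813 genes. The count was 1 member with a pseudocount of 0.1, median-of-ratios scaling, quantile scaling or TPM (3261 to 4646 genes called). It was also 1 with all genes above 0 (3507 of 36540 genes) or a mean of at least 5 FPKM (2135 of 10289). With only the groups compared it was 0 (2833 of 14465 genes). With the log2 FPKM sum as covariate it was 5 (6901 of 15813 genes). The other p53 targets called, 8 as reported, were then 18. Fits without the 4 libraries of high FPKM sum are given with the comparisons above. For IL-10-Fc against Ctrl-IgG the reported fit called 5 members, 13 other targets and 5326 of 15813 genes. The members were 3 with median-of-ratios or quantile scaling (5214 and 5378 genes) or a mean of at least 5 FPKM (3450 of 10289). They were 2 with all genes above 0 (4554 of 36540 genes) or only the groups compared (2753 of 14084). The last of these left 6 other targets. For BF10 against aCSF1R, 1 member and 9 other targets as reported, the counts were 2 members with TPM, 3 members and 17 other targets with the covariate, 4 members and 19 other targets without the 4 libraries, and 14 other targets with quantile scaling. An alternative chosen after seeing the data left out BF10 replicate 3 together with the 4 libraries of high FPKM sum. It leaves BF10 replicate 2 alone in its group, assumed to vary like the others, so its counts are not given separately. The 22 alternatives tallied over the IL-10 contrast include it. The cause of these changes was not tested, beyond the fewer libraries or different gene sets that some of them use. No paired analysis was possible because replicate numbers follow sample order only, and of the unexplained title codes only C6 occurs in more than 1 group. The 3 libraries per group and unknown fragment counts limit what could be seen for Cdkn2a and Cdkn2b, the members of lowest FPKM.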

Other observations

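The proliferation list (10 genes, all tested) had 1 call over the IL-10 contrast, where 28.6% of all tested genes were called lower and 14.6% higher. The mitotic kinase Aurkb was the single call over all libraries, with a log2 difference of -1.37 (SE 0.50, adjusted p = 0.0409, limma). Without the 4 libraries of high FPKM sum, Aurkb differed by -0.40 and was not called. The largest falls on the list were then those of Ccnb1 (-0.92) and Bub1 (-0.79), and the list's median was -0.01. Aurkb read 72.3, 31.9 and 68.5 FPKM under Ctrl-IgG, 75.99, 78.8 and 61.8 under aCSF1R, 8.92, 7.93 and 53.1 under IL-10-Fc and 13.6, 57.2 and 51.9 under BF10. The libraries of high FPKM sum were its lowest in each group that holds one, as for Trp53 and Cdkn1a. Mki67, the general marker of cycling cells, had the opposite order, at 60.1 to 82.0 FPKM in those 4 libraries and 26.8 to 43.4 in the other 8. It was named after its values were seen.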
